A study of Diospyros kaki with 21 samples.

Results

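The genes described here are 7 listed unigenes, assembled transcripts of the authors, whose deposited annotation names persimmon (Diospyros kaki) ethylene response factors: DkERF9, DkERF10, DkERF21, DkERF22, DkERF23, DkERF24 and DkERF25. They are 7 of 261970 unigenes and 7 of 127 unigenes that name any numbered persimmon ERF, and 37 further unigenes name one of the same 7 numbers. The list was taken as given, by name and not by level, but with earlier results of these data known.

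ERFs are plant transcription factors with an AP2 DNA-binding domain, and several groups of them respond to ethylene, low oxygen, drought or wounding. In persimmon they are known for deastringency: under high CO2 the fruit ferment, pyruvate decarboxylase (PDC) makes acetaldehyde, alcohol dehydrogenase (ADH) turns it into ethanol, and acetaldehyde makes the soluble tannins insoluble. DkERF9 and DkERF10 have been described as activators of persimmon PDC and ADH promoters.

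RNA was sequenced from flesh of 'Jingmianshi' fruit. CO2+1-MCP fruit received high CO2 together with 1-methylcyclopropene (1-MCP), a blocker of ethylene receptors, CO2 fruit received high CO2, and CK fruit received air, all for 1 d in closed containers, after which they were moved to air. CO2+1-MCP, CO2 and CK fruit were sampled at 1 d and at 4 d in storage, and CK fruit also at 0 d, which gave 7 groups of 3 libraries (A, B and C) and 21 libraries in all. The study names 3 biological replicates but not how many fruit each held, so p-values measure the spread between these libraries.

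Each library has an estimated read count and an FPKM value per unigene, and FPKM is normalised for unigene length and library depth. Total counts were between 14644843 and 24943140 per library. In the 10 comparisons of 2 groups, edgeR's quasi-likelihood test was run on the counts of 6 libraries, and a unigene passed at a Benjamini-Hochberg adjusted p below 0.05 over all unigenes tested. A DEG also had to change more than 5-fold. Material other than flesh was looked for by summed markers: 33 seed unigenes stood at 230 to 723 CPM (counts scaled to the library total) in CO2 4 d libraries and 82.9 to 87.4 CPM in CK 4 d libraries, 119 unigenes of green tissue at 599 to 644 in CO2 1 d libraries and 405 to 491 in CK 1 d libraries, and 4 unigenes with non-plant hits at no more than 2.08 in any library. The part of such material in the values below was not tested.

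All 7 members carry the AP2 domain entry (PF00847). By their Swiss-Prot hits they belong to different branches of the family. DkERF9 (Cluster-16487.25823, 2454 bases) was closest to Arabidopsis DREB2A, a regulator of drought and heat responses. DkERF10 (Cluster-16487.32289, 1274 bases) was closest to Arabidopsis ERF071, one of the hypoxia-responsive ERFs of group VII. DkERF21 (Cluster-16487.39270, 1142 bases) was closest to Arabidopsis ABR1, a repressor of abscisic acid responses. DkERF25 (Cluster-16487.59419, 1036 bases) was closest to Arabidopsis ERF1A, DkERF23 (Cluster-16487.106007, 1386 bases) to tobacco ERF5, and DkERF24 (Cluster-16487.67489, 1589 bases) to Arabidopsis ERF113. DkERF22 (Cluster-16487.54399, 1060 bases) was closest to Arabidopsis RAV1, a protein with an AP2 and a B3 domain, but only the AP2 entry is given for this unigene.

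The name of a unigene comes from its best hit in the NR protein database. DkERF9, DkERF21, DkERF23 and DkERF25 held the highest NR alignment score of their number. DkERF10 scored 1288 against 1303 for Cluster-16487.32292. The listed unigenes of DkERF22 and DkERF24 ranked behind 2 others of their number: DkERF22 scored 621 against 1637 for Cluster-16487.142884, and DkERF24, whose hit is a partial protein, scored 862 against 1322 for Cluster-16487.35734. Values for these better matches are given beside both genes at 1 d, and for DkERF22 at 4 d.

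At 1 d in storage, at the end of the gas treatment, 4 of the 7 unigenes rose in CO2 fruit against CK fruit (DkERF9, DkERF10, DkERF21 and DkERF25), DkERF23 fell, and DkERF22 and DkERF24 did not pass. Among all 60190 unigenes tested 20.9% rose and 19.6% fell, so that 40.6% passed in either direction. The 4 that rose were also DEGs, a call made for 20.0% of unigenes. The median log2 fold change was 2.72 over the 7 members and -0.05 over all unigenes tested. In bulk flesh, fewer cells of a type and less RNA per cell cannot be told apart.

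**Figure D1:**
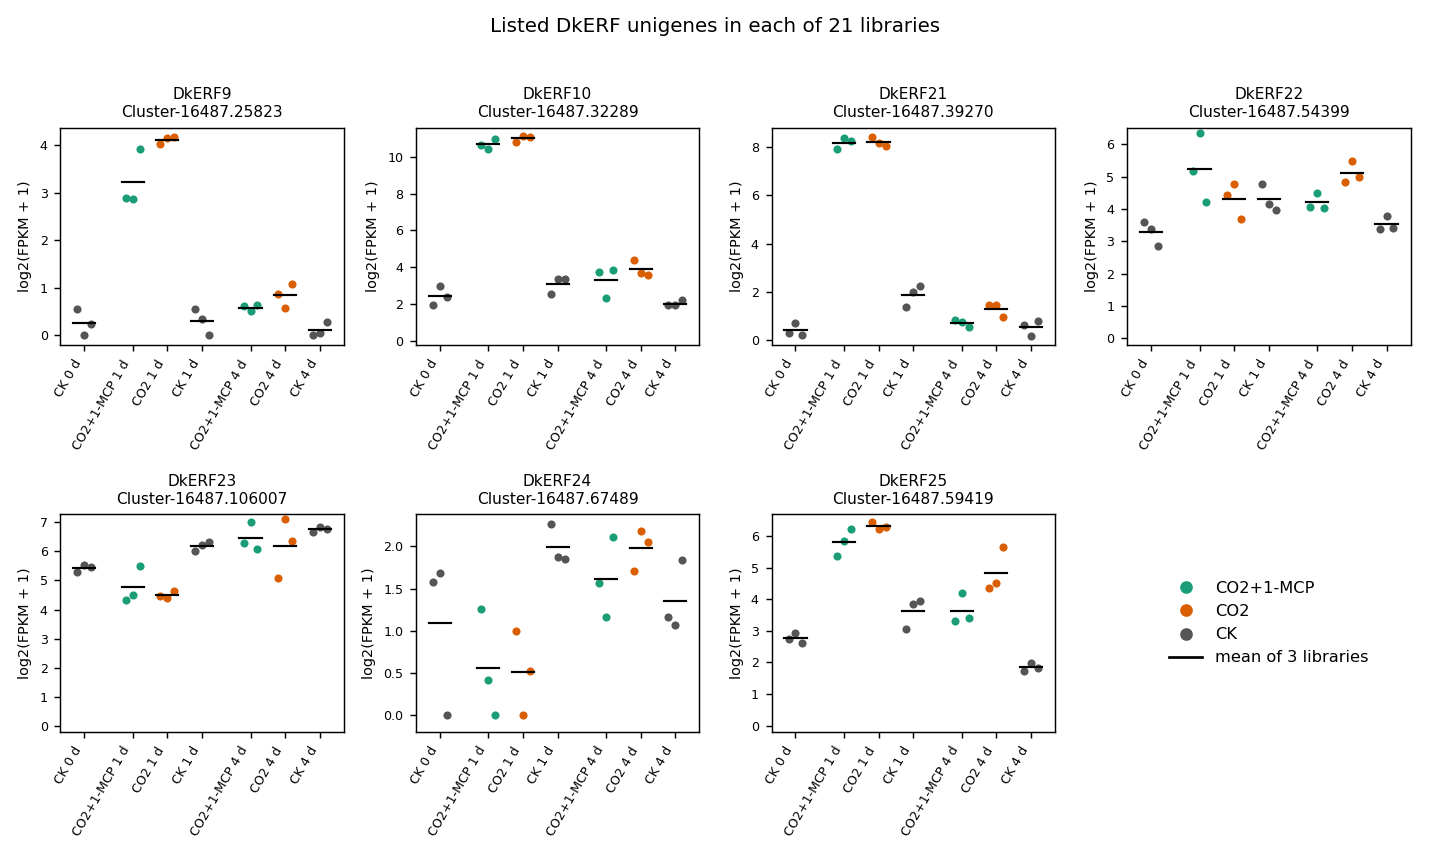
Levels of the 7 listed DkERF unigenes in the 21 libraries. Each point is 1 library on the log2(FPKM + 1) scale (y axis), groups are on the x axis by day, and the bar is the mean of 3 libraries. DkERF9, DkERF10, DkERF21 and DkERF25 are high in both gas-treated groups at 1 d, where all their points lie above those of CK 1 d, whereas DkERF23 is low there.

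DkERF10 had the highest level of the 7. Its FPKM was 1749, 2214 and 2162 in the CO2 1 d libraries, against 4.98, 9.50 and 9.26 in the CK 1 d libraries. The corresponding estimated counts were 31342, 38232 and 31654 in CO2 fruit, against 90.1, 171 and 204 in CK fruit, so that both groups were well above the counting limit. Every CO2 library lay far above every CK library. The log2 fold change was 7.96 ± 0.33 (SE), a 249-fold rise, with an edgeR adjusted p of 6.62e-05. Among 340 unigenes with an AP2 domain DkERF10 ranked first at CO2 1 d, against rank 46 at CK 1 d, and among all unigenes it ranked 218th at CO2 1 d and 16186th at CK 1 d.

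DkERF10 was spread over 9 unigenes, among which the authors' counting could divide its reads. The listed unigene held 48.8% of their summed counts at CO2 1 d and 49.6% at CK 1 d. Of the 9, 6 were tested and all 6 rose at 1 d, with log2 fold changes between 5.67 and 9.18. In CK 1 d against CK 0 d 4 of the 9 had enough counts to be tested. The sum over the 9 was 4174 ± 584 CPM in CO2 1 d fruit and 15.8 ± 4.01 CPM in CK 1 d fruit (SD, n = 3 each). The best NR match, Cluster-16487.32292, was at 538, 737 and 675 FPKM in CO2 1 d libraries, against 0.45, 1.48 and 1.29 in CK 1 d libraries, with no overlap between the groups.

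DkERF21 followed the same course at a lower level. Its FPKM was 336, 289 and 265 in the CO2 1 d libraries, against 1.59, 3.03 and 3.72 in the CK 1 d libraries. No library of one group came near the other. The log2 fold change was 6.70 ± 0.37, a 104-fold rise with an edgeR adjusted p of 0.000115. It ranked eighth among the AP2 unigenes at CO2 1 d, and 76th at CK 1 d. Its 8 unigenes included 6 that were tested, and all 6 rose (log2 fold changes 6.13 to 7.79). Only 2 of the 8 had enough counts to be tested in CK 1 d against CK 0 d. The others entered the test through their counts in CO2 fruit, so a rise among them was largely set by the filter on low counts.

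DkERF9 was much less abundant. It had 15.3, 16.9 and 17.0 FPKM in the CO2 1 d libraries, against 0.48, 0.28 and 0 in the CK 1 d libraries. The CK values rest on 19, 11 and 0 estimated counts, against 597, 637 and 542 in CO2 fruit, so the size of the change is less certain than for DkERF10. The log2 fold change was 5.98 ± 0.86, with an edgeR adjusted p of 0.00283, and it stayed between 5.31 and 6.87 when each of the 6 libraries was left out in turn. Of the 6 unigenes of this number 3 were tested, and all 3 rose. Only 1 of the 6 was tested in CK 1 d against CK 0 d, so the filter on low counts favoured unigenes high in CO2 fruit.

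DkERF25, the only unigene of its number, was already at moderate levels in untreated fruit. It reached 86.0, 74.0 and 76.1 FPKM in the CO2 1 d libraries, against 7.33, 13.3 and 14.3 FPKM in the CK 1 d libraries. The groups did not overlap, and the rise of 2.72 ± 0.28 on the log2 scale (6.59-fold, edgeR adjusted p = 0.000868) was the smallest among the 4 that rose.

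DkERF23 went the other way. It had 21.3, 20.2 and 24.2 FPKM in the CO2 1 d libraries, against 63.9, 73.1 and 79.6 FPKM in the CK 1 d libraries. The log2 fold change was -1.77 ± 0.14, that is 3.41-fold lower in CO2 fruit (edgeR adjusted p = 0.000344). DkERF23 was the most abundant of the 7 in all 3 CK groups, and it ranked behind DkERF10, DkERF21 and DkERF25 at CO2 1 d. Both unigenes that carry its number were tested, and both fell.

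The listed DkERF22 unigene had 20.5, 26.4 and 11.9 FPKM in the CO2 1 d libraries, against 26.1, 16.9 and 14.7 FPKM in the CK 1 d libraries. The groups overlapped fully, and the log2 fold change of -0.01 ± 0.38 was within the spread between replicates (edgeR adjusted p = 0.98). The best NR match for DkERF22 was different. Cluster-16487.142884 stood at 18.8, 13.5 and 13.5 FPKM in the CO2 1 d libraries, against 1.60, 0.59 and 1.47 FPKM in the CK 1 d libraries, a log2 fold change of 3.61 ± 0.44 (edgeR adjusted p = 0.00158). The next best, Cluster-16487.98583, which was singled out after its values were seen, stood at 53.1, 43.1 and 36.7 FPKM in CO2 1 d libraries, against 4.57, 1.98 and 4.71 FPKM in CK 1 d libraries. Both rose, whereas the listed unigene did not pass, and the share of the listed unigene in the summed DkERF22 counts was 22.6% at CO2 1 d and 76.6% at CK 1 d. Summed over its 6 unigenes, DkERF22 rose (log2 fold change 1.77, edgeR adjusted p = 0.00435).

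The listed DkERF24 unigene had few or no counts in gas-treated fruit at 1 d. It had 1.00, 0 and 0.43 FPKM in the CO2 1 d libraries, against 3.81, 2.68 and 2.60 FPKM in the CK 1 d libraries. In estimated counts these were 23.5, 0 and 8.35 in CO2 fruit, against 90.6, 63.8 and 75.3 in CK fruit. All CO2 values were below all CK values, yet the difference (log2 fold change -2.69 ± 1.05) missed the threshold with an edgeR adjusted p of 0.0836. It passed without CO2 1 d library A (adjusted p = 0.0453) or without CO2 1 d library B (adjusted p = 0.0464), and by DESeq2 (adjusted p = 0.032 for Cluster-16487.67489). The best match, Cluster-16487.35734, was at 2.15, 2.12 and 2.63 FPKM in CO2 1 d libraries, against 1.60, 0.84 and 1.91 FPKM in CK 1 d libraries. These values were higher rather than lower in CO2 fruit, but also did not pass (log2 fold change 0.60, edgeR adjusted p = 0.269). Of the 12 unigenes of this number 7 were tested, 4 of which fell and none of which rose, and the sum over the 12 fell to 6.42 ± 0.94 CPM at CO2 1 d, against 16.8 ± 1.04 at CK 1 d (SD, n = 3 each; log2 fold change -1.47, edgeR adjusted p = 0.0012).

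**Figure D2:**
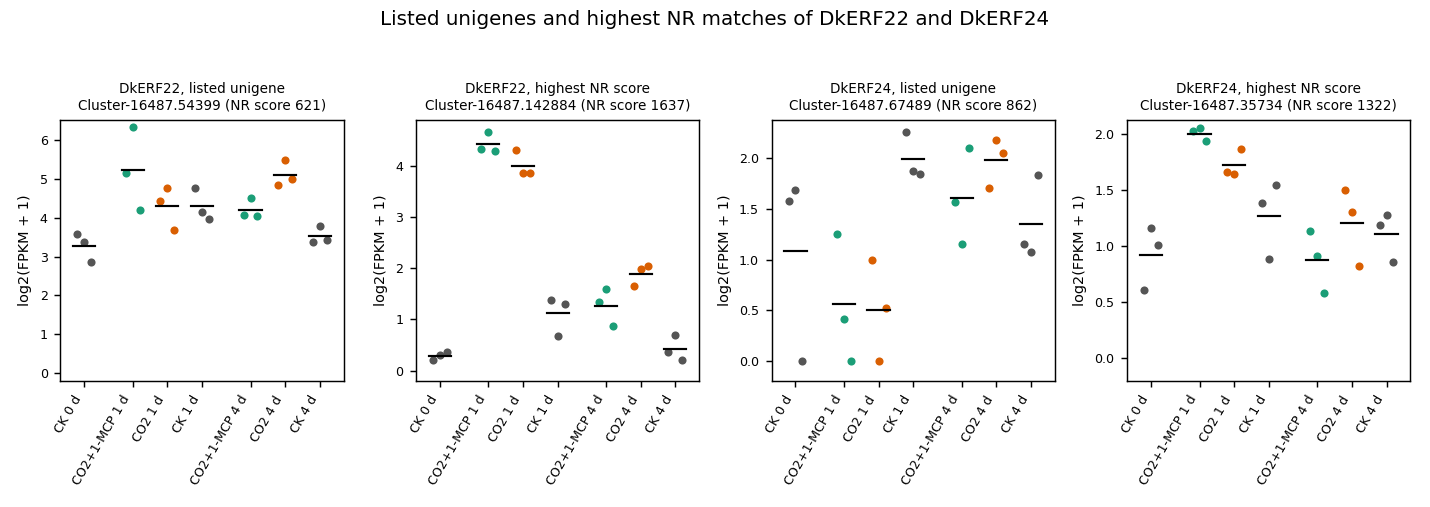
Listed unigenes of DkERF22 and DkERF24 beside the unigene with the highest NR score for the same number. Points are libraries on the log2(FPKM + 1) scale (y axis) by group (x axis) and bars are means of 3 libraries; green is CO2+1-MCP, orange CO2 and grey CK. Cluster-16487.142884 is high in both gas-treated groups at 1 d, while the listed DkERF22 unigene overlaps between CO2 1 d and CK 1 d.

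Fruit with 1-MCP added to CO2 were set against CO2 fruit. At 1 d the lowest edgeR adjusted p of any unigene was 0.194, so a missing call cannot show independence of ethylene perception. Such dependence was not tested. At 1 d none of the 6 members tested differed between CO2+1-MCP and CO2 fruit by edgeR, where 0.0% of 56191 unigenes passed and 4167 had an unadjusted p below 0.05. DESeq2 called none of the members and 566 unigenes in all. DkERF24 had too few counts to be tested here. The only member with an unadjusted p below 0.05, as 7.42% of unigenes had, was DkERF9. It had 6.40, 6.29 and 14.3 FPKM in CO2+1-MCP 1 d libraries, against 15.3, 16.9 and 17.0 FPKM in CO2 1 d libraries. All 3 CO2+1-MCP values were below all CO2 values, with a log2 fold change of -0.86 ± 0.31 (edgeR adjusted p = 0.617).

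DkERF10 had 1609, 1353 and 1979 FPKM in CO2+1-MCP 1 d libraries, against 1749, 2214 and 2162 FPKM in CO2 1 d libraries, and DkERF21 averaged 291 ± 43.2 FPKM in CO2+1-MCP fruit and 297 ± 36.2 FPKM in CO2 fruit (SD, n = 3 each). Both overlapped between the groups. DkERF25 had 40.5, 56.5 and 73.6 FPKM in CO2+1-MCP 1 d libraries, below the 3 CO2 values between 74.0 and 86.0 FPKM, with an edgeR adjusted p of 0.762. DkERF22 varied widely with 1-MCP (34.8, 80.1 and 17.4 FPKM), and DkERF23 had 19.1, 21.5 and 43.9 FPKM there.

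CO2+1-MCP fruit were also set against CK fruit at 1 d, a comparison that shares its CK libraries with that of CO2. Again 4 members rose and 1 fell, where 18.5% of 59566 unigenes rose and 17.2% fell. The same members as with CO2 passed. DkERF10 rose by 7.71 ± 0.35 on the log2 scale (edgeR adjusted p = 0.000157), DkERF21 by 6.74 ± 0.37 (adjusted p = 0.000197), DkERF9 by 5.14 ± 1.01 (adjusted p = 0.00936) and DkERF25 by 2.31 ± 0.32 (adjusted p = 0.00343). DkERF23 fell by 1.36 ± 0.31 on the log2 scale (adjusted p = 0.0155), a call lost without CO2+1-MCP 1 d library B (adjusted p = 0.0557) or CK 1 d library C (adjusted p = 0.0515; both for Cluster-16487.106007). The listed DkERF22 unigene did not pass (log2 fold change 1.26, adjusted p = 0.146) except without CO2+1-MCP 1 d library C (adjusted p = 0.0422 for Cluster-16487.54399), nor did DkERF24 (log2 fold change -2.44, adjusted p = 0.142). The best match for DkERF22, Cluster-16487.142884, rose by 4.11 (adjusted p = 0.00124).

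**Figure D3:**
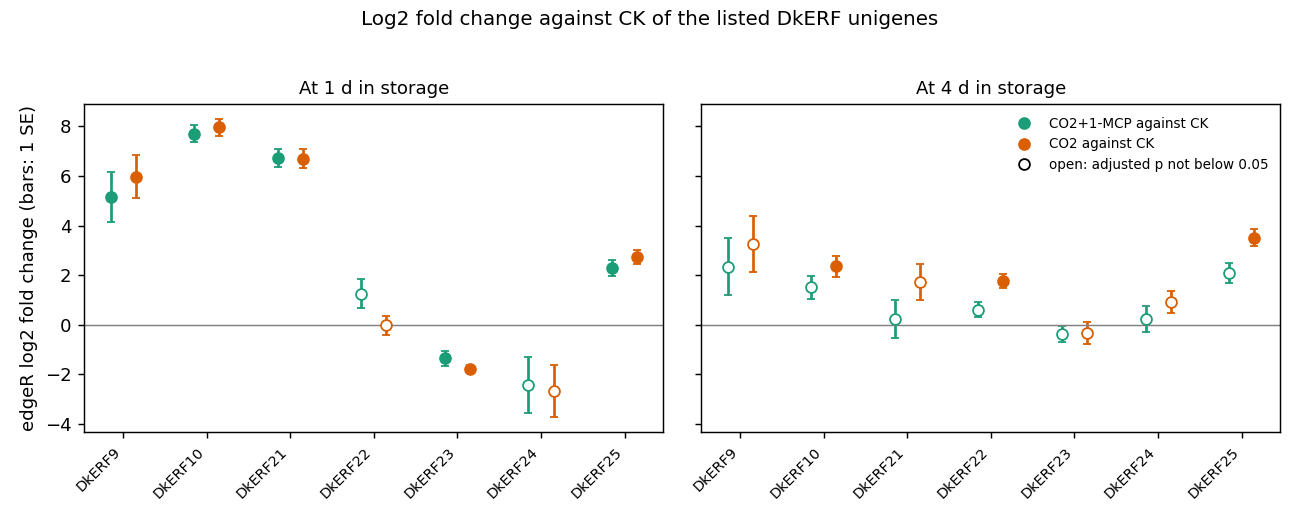
Log2 fold changes of the 7 members against CK at 1 d and at 4 d, from edgeR, with 1 SE as bars. The y axis is the log2 fold change and the x axis the members; filled points have an adjusted p below 0.05. DkERF10 stands at 7.71 for CO2+1-MCP and 7.96 for CO2 at 1 d, and at 4 d the 3 filled points (DkERF10, DkERF22 and DkERF25) belong to CO2.

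The other genes of the response were taken from lists by annotation. Of the 48 tested unigenes that name other persimmon ERF numbers, 34 rose and 5 fell in CO2 fruit against CK fruit at 1 d (median log2 fold change 2.09). In CK 1 d against CK 0 d only 31 of this list were tested. The filter on low counts thus favoured unigenes high in CO2 fruit. Taking 1 unigene per number, DkERF20 (Cluster-16487.27097) averaged 32.8 FPKM at CO2 1 d against 0.30 FPKM at CK 1 d, DkERF1 (Cluster-16487.95774) 807 against 306 FPKM, and DkERF3 (Cluster-16487.112976) 96.7 against 174 FPKM. The first 2 rose and DkERF3 fell. These are examples, and the remaining numbers are not printed. Of 129 further AP2 unigenes, 45 rose and 31 fell, with a median of 0.30.

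Of the fermentation enzymes, 20 of 26 tested PDC unigenes rose and 3 fell at 1 d, and 25 of 47 tested ADH unigenes rose and none fell. Only 14 PDC and 31 ADH unigenes were tested in CK 1 d against CK 0 d. Here too the filter on low counts favoured unigenes high in CO2 fruit. DkPDC2 (Cluster-16487.93179) had 2678, 3572 and 3126 FPKM in CO2 1 d libraries, against 7.78, 11.6 and 9.22 FPKM in CK 1 d libraries. DkADH1 (Cluster-16487.151869) had 1858, 1709 and 1505 FPKM in CO2 1 d libraries, against 22.9, 18.9 and 17.1 FPKM in CK 1 d libraries. DkPDC2 and DkADH1 reached levels of the same order as that of DkERF10, but the other numbers differed. DkPDC3 had 329, 411 and 427 FPKM in CO2 1 d libraries, against 87.5, 99.6 and 94.1 FPKM in CK 1 d libraries. DkADH3 had 39.4, 41.1 and 30.8 FPKM in CO2 1 d libraries, which overlapped 77.3, 28.05 and 56.4 FPKM in CK 1 d libraries. DkPDC1 and DkPDC4, and to a smaller extent DkADH2, were higher in every CO2 1 d library than in any CK 1 d library. DkPDC5 was at 0 FPKM in CO2 1 d library C. Plant cysteine oxidase unigenes, whose products sense oxygen by way of group VII ERFs, rose in 19 of 28 cases and fell in 2. Sucrose synthase unigenes rose in 13 of 28 cases and fell in 1. In CK 1 d against CK 0 d 24 cysteine oxidase and 21 sucrose synthase unigenes were tested. All 3 tested unigenes of non-symbiotic hemoglobin rose, but only 1 was tested in CK 1 d against CK 0 d. The filter on low counts thus favoured hemoglobin unigenes high in CO2 fruit. Of the unigenes of ethylene signalling, 24 of 40 fell and 1 rose. Those that fell included 9 of 16 ethylene receptor unigenes, 8 of 10 CTR1 unigenes and 6 of 8 EIN2 unigenes. EIN2 passes the ethylene signal on from the receptors. The fall did not cover the whole list: none of 4 EIN3 unigenes passed, and of 2 EBF unigenes 1 rose and 1 fell. In CO2+1-MCP fruit against the same CK 1 d libraries, 32 of 49 unigenes of other persimmon ERF numbers rose and 6 fell, 19 of 25 PDC unigenes rose and 2 fell, 22 of 46 ADH unigenes rose and none fell, and 20 of 42 ethylene signalling unigenes fell and 2 rose. The filter on low counts bears on these ERF, PDC and ADH counts in the same way.

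**Figure D4:**
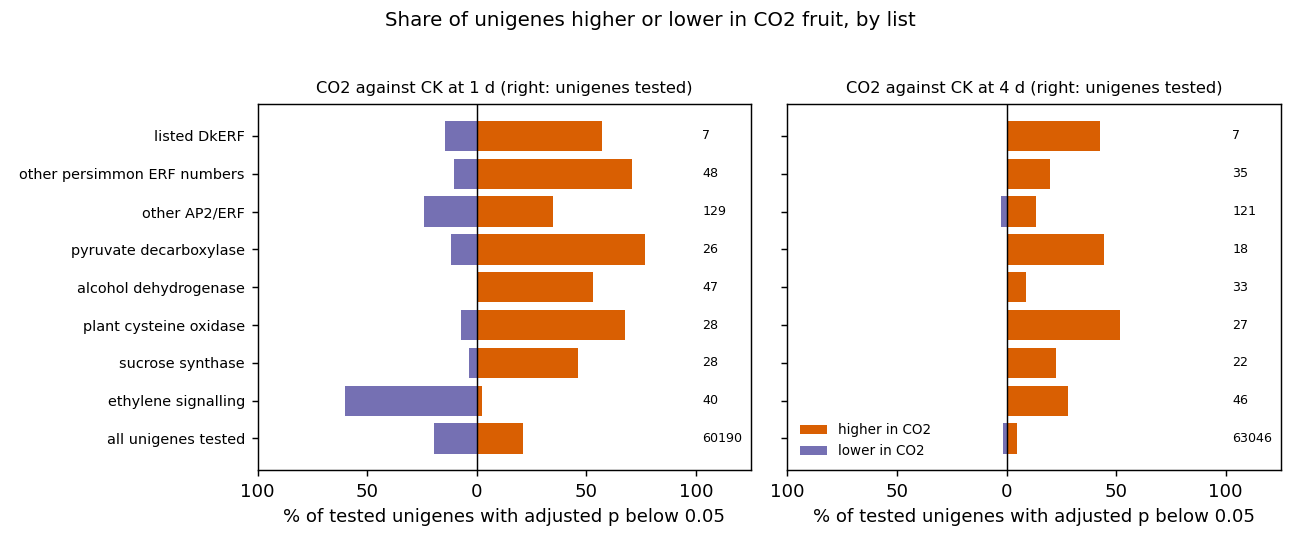
Share of tested unigenes with an adjusted p below 0.05 in CO2 fruit against CK fruit (x axis, percent; orange to the right is higher in CO2, purple to the left lower in CO2), for each list (y axis) at 1 d and 4 d, with the number tested at the right edge. At 1 d the PDC list has 20 of 26 unigenes higher, and the ethylene signalling list 24 of 40 lower. In the other persimmon ERF, PDC and ADH lists the filter on low counts favoured unigenes high in CO2 fruit.

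After 3 more days in air the members that had risen were lower again. CO2 fruit at 4 d were set against CO2 fruit at 1 d, where 16.3% of 58543 unigenes rose and 15.0% fell. Of the 7 members 4 fell and DkERF23 rose. DkERF10 was at 20.4, 12.2 and 10.8 FPKM in CO2 4 d libraries, a fall of 135-fold against CO2 1 d (log2 fold change -7.08 ± 0.51, edgeR adjusted p = 0.000993). DkERF21 was at 1.73, 1.75 and 0.97 FPKM in CO2 4 d libraries (log2 fold change -7.63 ± 0.47, adjusted p = 0.000993). DkERF9 was at 0.82, 0.50 and 1.12 FPKM in CO2 4 d libraries (log2 fold change -4.34 ± 0.34, adjusted p = 0.00117). These 3 unigenes, the ones with the strongest rise at 1 d, fell the most. The rise and the fall share the CO2 1 d libraries, so high values there enlarge both and the match is partly built in. Of the lists, 27 of 49 unigenes of other persimmon ERF numbers fell and 8 rose, 16 of 28 PDC unigenes fell and 7 rose, and 27 of 45 ethylene signalling unigenes rose and none fell. For the ERF and PDC lists the filter on low counts favoured unigenes high in CO2 1 d fruit.

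DkERF25 fell less. It was at 19.2, 21.5 and 48.7 FPKM in CO2 4 d libraries, all below the CO2 1 d values (log2 fold change -1.47 ± 0.33, edgeR adjusted p = 0.0164). DkERF23 rose to 33.3, 139 and 80.4 FPKM in CO2 4 d libraries, with a wide spread (log2 fold change 1.90 ± 0.46, adjusted p = 0.0213). Both calls depend on single libraries: that of DkERF25 (Cluster-16487.59419) was lost without CO2 1 d library A or B or without CO2 4 d library A or B (adjusted p 0.0582 to 0.0671), and that of DkERF23 (Cluster-16487.106007) without any 1 of the 3 CO2 1 d libraries (adjusted p 0.0688 to 0.0896).

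In CO2+1-MCP fruit at 4 d against 1 d, 4 members fell and none rose, where 9.66% of 59934 unigenes rose and 11.1% fell. DkERF10 was at 12.6, 4.01 and 13.5 FPKM in CO2+1-MCP 4 d libraries (log2 fold change -7.68 ± 0.55, edgeR adjusted p = 0.00146), DkERF21 at 0.76, 0.66 and 0.45 FPKM (-9.16 ± 0.40, adjusted p = 0.00114), and DkERF9 at 0.53, 0.42 and 0.56 FPKM (-4.44 ± 0.45, adjusted p = 0.00296). DkERF25 was at 8.90, 17.2 and 9.59 FPKM there (-2.52 ± 0.42, adjusted p = 0.0106, and 0.0503 for Cluster-16487.59419 without CO2+1-MCP 4 d library A). DkERF23 had 77.2, 128 and 66.7 FPKM in CO2+1-MCP 4 d libraries, all above its CO2+1-MCP 1 d values, with an adjusted p of 0.06.

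For DkERF22 the result between days depended on the unigene. The listed unigene had 27.8, 44.2 and 30.9 FPKM in CO2 4 d libraries, against 20.5, 26.4 and 11.9 FPKM in CO2 1 d libraries, and did not pass (log2 fold change 0.79, edgeR adjusted p = 0.156). Its best NR match, Cluster-16487.142884, had 2.13, 2.97 and 3.12 FPKM in CO2 4 d libraries, against 18.8, 13.5 and 13.5 FPKM in CO2 1 d libraries, and fell (log2 fold change -2.51 ± 0.31, adjusted p = 0.00305). Of the 4 DkERF22 unigenes tested 3 fell, and the sum over the 6 fell as well (log2 fold change -0.96, adjusted p = 0.043; summed with Cluster-16487.54399). In CO2+1-MCP fruit the best match also fell (log2 fold change -4.11, adjusted p = 0.00426).

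At 4 d, 3 members were higher in CO2 fruit than in CK fruit, where 4.57% of 63046 unigenes rose and 1.76% fell. They were DkERF10, DkERF22 and DkERF25. DkERF25 had 19.2, 21.5 and 48.7 FPKM in CO2 4 d libraries, against 2.28, 2.98 and 2.53 FPKM in CK 4 d libraries (log2 fold change 3.52 ± 0.35, edgeR adjusted p = 0.0192). DkERF10 had 20.4, 12.2 and 10.8 FPKM in CO2 4 d libraries, against 2.83, 2.86 and 3.63 FPKM in CK 4 d libraries (2.36 ± 0.43, adjusted p = 0.0343). The listed DkERF22 unigene, which did not pass at 1 d, had 27.8, 44.2 and 30.9 FPKM in CO2 4 d libraries, against 9.39, 12.8 and 9.73 FPKM in CK 4 d libraries (1.76 ± 0.28, adjusted p = 0.0271). Its best match, Cluster-16487.142884, at 2.13, 2.97 and 3.12 FPKM in CO2 4 d libraries, against 0.29, 0.62 and 0.15 FPKM in CK 4 d libraries, rose too (3.01 ± 0.61, adjusted p = 0.0418). None of the 3 members overlapped between the groups, and neither did DkERF9 or DkERF21, which did not pass. The share of all unigenes without overlap was not computed.

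All 3 calls at 4 d were lost when any CK 4 d library or CO2 4 d library B was left out, where no unigene at all passed (adjusted p 0.0533 to 0.165 over Cluster-16487.32289, Cluster-16487.54399 and Cluster-16487.59419), while the fold changes of the 3 kept their direction. The seed marker sum, which was higher in CO2 4 d libraries than in CK 4 d libraries (above), moves with the same comparison. DkERF9 (adjusted p = 0.142), DkERF21 (adjusted p = 0.211), DkERF23 (adjusted p = 0.691) and DkERF24 (adjusted p = 0.251) did not pass by edgeR.

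Of the lists, 7 of 35 tested unigenes of other persimmon ERF numbers rose at 4 d and none fell. DkERF16 (Cluster-16487.217803) averaged 13.3 FPKM in CO2 4 d fruit against 0.15 FPKM in CK 4 d fruit, DkERF18 (Cluster-16487.22306) 13.3 against 0.13 FPKM, and DkERF19 (Cluster-16487.205447) 27.9 against 0.73 FPKM. All 3 rose. PDC unigenes rose in 8 of 18 cases and ADH unigenes in 3 of 33. Ethylene receptor unigenes, of which none rose and 9 fell at 1 d, rose in 10 of 18 cases at 4 d.

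Between CO2+1-MCP and CO2 fruit at 4 d no member passed by edgeR with 2 groups in the fit or by DESeq2, with 0.0% of 62228 unigenes passing by edgeR, 3883 (6.24%) at an unadjusted p below 0.05 and 1464 passing by DESeq2. With all 7 groups in the fit 1498 unigenes passed, among them DkERF25 (Cluster-16487.59419, adjusted p = 0.0404). DkERF22 had 15.7, 21.7 and 15.5 FPKM in CO2+1-MCP 4 d libraries, against 27.8, 44.2 and 30.9 FPKM in CO2 4 d libraries (log2 fold change -1.09 ± 0.36, edgeR adjusted p = 0.541). DkERF25 had 8.90, 17.2 and 9.59 FPKM in CO2+1-MCP 4 d libraries, against 19.2, 21.5 and 48.7 FPKM in CO2 4 d libraries (-1.38 ± 0.50, edgeR adjusted p = 0.643). Both were lower in every CO2+1-MCP library than in any CO2 library, and only these 2 members had an unadjusted p below 0.05. DkERF21 did not overlap either, at 0.76, 0.66 and 0.45 FPKM in CO2+1-MCP 4 d libraries and 1.73, 1.75 and 0.97 in CO2 4 d libraries. Its log2 fold change was -1.43 ± 0.65 (edgeR adjusted p = 0.864). DkERF9, DkERF10, DkERF23 and DkERF24 overlapped, and the share of all unigenes without overlap was not computed. The seed marker sum moved with this comparison too, at 92.6 to 106 CPM in CO2+1-MCP 4 d libraries and 230 to 723 CPM in CO2 4 d libraries, and its part was not tested.

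CO2+1-MCP against CK at 4 d gave no member either by edgeR, with 0.303% of 64312 unigenes passing, 2 members (DkERF10 and DkERF25) and 12.8% of unigenes at an unadjusted p below 0.05, and 1 member (DkERF25) called by DESeq2. Over all unigenes DESeq2 called 2202 of 99686. DkERF25 averaged 11.9 ± 4.63 FPKM in CO2+1-MCP 4 d fruit and 2.60 ± 0.36 FPKM in CK 4 d fruit (SD, n = 3 each; edgeR adjusted p = 0.104). DkERF10 averaged 10.05 ± 5.25 FPKM in CO2+1-MCP 4 d fruit and 3.11 ± 0.45 FPKM in CK 4 d fruit (SD, n = 3 each; edgeR adjusted p = 0.24). CO2+1-MCP 4 d library B, which had counts in the fewest unigenes of all libraries (102829), bears on this comparison: without it DkERF10 (Cluster-16487.32289) passed with an adjusted p of 0.0117, DkERF25 (Cluster-16487.59419) with 0.0238 and DkERF23 (Cluster-16487.106007, log2 fold change -0.79) with 0.0309.

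The CO2 effect itself was compared between the days by an interaction contrast over 12 libraries, in which 10.3% of 78088 unigenes were higher and 7.95% lower at 4 d. DkERF10 (difference of log2 fold changes -5.66 ± 0.53, edgeR adjusted p = 0.000122) and DkERF21 (-5.09 ± 0.72, adjusted p = 0.00103) had a smaller effect at 4 d. The listed DkERF22 unigene had a larger one (1.72 ± 0.50, adjusted p = 0.0381), a call that was lost without 1 of 7 libraries (CK 1 d A or B, CK 4 d A or C, CO2 1 d A or C, or CO2 4 d B; adjusted p 0.0563 to 0.0908 for Cluster-16487.54399). The difference was -0.65 for its best match (adjusted p = 0.604) and 0.17 for the sum of its unigenes (adjusted p = 0.83), neither of which passed. DkERF25 did not pass (adjusted p = 0.272), nor did DkERF9 (adjusted p = 0.209), DkERF23 (adjusted p = 0.0747) or DkERF24 (adjusted p = 0.0688). DkERF23 (Cluster-16487.106007) passed without CO2 4 d library A (adjusted p = 0.00708), and DkERF24 (Cluster-16487.67489) without CO2 1 d library A (adjusted p = 0.0233) or B (adjusted p = 0.026). For the 1-MCP effect in CO2 fruit between the days no member passed, where 0.0271% of 77447 unigenes did, 2 members and 9.07% of unigenes had an unadjusted p below 0.05, and DESeq2 called none of the members.

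CK fruit were also compared between days. CK 1 d fruit had spent the time since 0 d in closed containers, so CK 1 d against CK 0 d cannot separate time from enclosure. Between CK 1 d and CK 0 d none passed by edgeR, where 0.068% of 60332 unigenes did, 4 members and 14.4% of unigenes had an unadjusted p below 0.05, and DESeq2 called 3 (DkERF21, DkERF22 and DkERF23). Over all unigenes DESeq2 called 2443 of 83860. DkERF23 had 63.9, 73.1 and 79.6 FPKM in CK 1 d libraries, against 37.9, 45.6 and 43.5 FPKM in CK 0 d libraries (edgeR adjusted p = 0.0531). DkERF21 had 1.59, 3.03 and 3.72 FPKM in CK 1 d libraries, against 0.22, 0.65 and 0.15 FPKM in CK 0 d libraries (edgeR adjusted p = 0.107). Neither overlapped between the days, nor did DkERF22, DkERF24 or DkERF25. The share of all unigenes without overlap was not computed here either.

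Between CK 4 d and CK 1 d 1 of the 6 members tested passed, where 1.44% of 62536 unigenes rose and 1.2% fell. DkERF25 fell to 2.28, 2.98 and 2.53 FPKM in CK 4 d libraries, against 7.33, 13.3 and 14.3 FPKM in CK 1 d libraries (log2 fold change -2.31 ± 0.29, edgeR adjusted p = 0.0229). This call held only when CK 1 d library A was left out and was lost without any other of the 6 libraries (adjusted p 0.0555 to 0.125 for Cluster-16487.59419). DkERF23 was highest at this time, with 101, 112 and 109 FPKM in CK 4 d libraries (edgeR adjusted p = 0.0848). DESeq2 called 5 of the members, and 3940 of 94650 unigenes. All 6 members tested by edgeR had an unadjusted p below 0.05, as did 10620 of 62536 unigenes.

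Over all groups, DkERF23 was the most abundant member in CK fruit and in all fruit at 4 d, DkERF10 the most abundant in both gas-treated groups at 1 d, and DkERF9 or DkERF24 the least abundant in every group. Across the 21 libraries, on the log2(FPKM + 1) scale, DkERF10 and DkERF21 had a Pearson r of 0.99, DkERF9 and DkERF10 one of 0.97, and DkERF25 one of 0.84 to 0.87 with these 3. DkERF23 had a negative r of -0.79 to -0.76 with DkERF9, DkERF10 and DkERF21, and DkERF22 one of 0.37 to 0.44 with them. These values describe the 21 points, which share libraries and fall into groups, and 6 of the 21 points are those of gas-treated fruit at 1 d.

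Among 24392 unigenes with a mean of at least 5 FPKM, the ones most like DkERF10 were Cluster-16487.145925 (a cytochrome P450 94A2 hit, r = 0.99), Cluster-16487.108876 (a coproporphyrinogen oxidase hit by nucleotide) and Cluster-16487.25701 (an uncharacterised grape protein). Those most like DkERF9 were 2 unigenes with hits to an ABC transporter of the B family (Cluster-16487.193255 and Cluster-16487.193252) and Cluster-16487.191060, without an NR hit. DkERF21 was followed most closely by Cluster-16487.27320 and Cluster-16487.99409, without a named function, and by Cluster-16487.133720, a WRKY factor hit. Another numbered persimmon ERF appeared for DkERF25 only, among whose 3 closest unigenes was DkERF18 (Cluster-16487.22306, r = 0.95). For DkERF22 the closest r was 0.89 (Cluster-16487.53392, an F-box protein hit), for DkERF23 0.95 (Cluster-16487.105884, a mitochondrial uncoupling protein hit), and for DkERF24 0.81 (Cluster-16487.98526, a RING domain protein hit).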

How the data were processed

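The authors assembled reads of all libraries into unigenes with Trinity (min_kmer_cov 2) and deposited, per library, an estimated count (expected count) and an FPKM value for each unigene. RSEM is named in the submitters' processing notes, without a version. Between 24.5% and 37.6% of the counts per library were not whole and were rounded. The deposited annotation gives the unigene length in bases and the NR alignment score, used as the authors wrote them. No genome was used, and no sequence is printed because none was given.

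Counts were tested with edgeR 4.0.16 in R 4.3.3 (filterByExpr, TMM factors, glmQLFTest, 2 groups per fit, 12 libraries for interactions), with adjustment over all unigenes tested. An SE is the size of the log2 fold change over the root of F. Levels are FPKM, with a pseudocount of 1 on the log2 scale. Each result was also computed with DESeq2 1.42.0, RLE scaling, every unigene with a count, a joint fit of the 7 groups, a block for replicate letters, counts summed per ERF number, the 5-fold threshold, and each library left out. The unigene with the highest NR score was added after seeing the data. The fits were tested on simulated counts. Tables and figures used Python 3.11.15, numpy 2.4.6, pandas 2.3.3 and matplotlib 3.10.9.

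The members and lists were chosen with earlier results of these data known. Besides the members, 1 unigene of highest mean FPKM was named per other persimmon ERF number and per persimmon ADH and PDC name, up to 2 per other list, and the 3 unigenes closest to each member by Pearson correlation. Total counts limit precision for low unigenes such as DkERF9 and DkERF24, and 0 counts in a library still allows 3.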

Additional observations from a re-analysis of the deposited data

Results flagged for a closer look

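The effect of CO2 against CK differed between 4 d and 1 d for 3 of the 7 unigenes by the interaction contrast of edgeR, a call made for 18.2% of 78088 unigenes. The difference of log2 fold changes, 4 d minus 1 d, was -5.66 for DkERF10 (adjusted p = 0.000122) and -5.09 for DkERF21 (adjusted p = 0.00103), and both calls held without each of the 12 libraries. It was 1.72 for the listed DkERF22 unigene (adjusted p = 0.0381), held without 5 of the 12 libraries, and was -0.65 (adjusted p = 0.604) for the unigene with the highest NR score of that number. No explanation was tested.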

How the results depend on the processing

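At 1 d the counts of members passing kept within 1.5 times under DESeq2, other factors, no low-count filter, the block and the 7-group fit, but in CO2+1-MCP against CK 3 of 5 exceeded 5-fold. Which unigene stands for a number mattered more. For DkERF22 in CO2 against CK at 1 d, with -0.01 for the listed unigene, the log2 fold change was 3.61 for the highest NR score, 1.77 for the sum, 0.021 by DESeq2, 0.040 without the filter, 0.049 in the 7-group fit, and -0.22 to 0.32 with each library left out. With the highest NR score DkERF24 had 0.60 in CO2 and 1.06 in CO2+1-MCP against CK at 1 d, and the difference of CO2 effects between days was -0.65 for DkERF22 and -0.30 for DkERF24.

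In CO2 against CK at 4 d, with 3 members passing, the replicate block gave 0 and leaving out libraries 0 to 3. For CO2+1-MCP against CO2 at 4 d the 7-group fit gave 1 instead of 0, with DkERF25 at an adjusted p of 0.0404. For CO2+1-MCP against CK at 4 d, with 0, DESeq2 and the 7-group fit gave 1 each, and leaving out libraries 0 to 3. For CK 1 d against 0 d, with 0, DESeq2 gave 3 and no filter 1. For CK 4 d against 1 d, with 1, the 5-fold threshold and the block gave 0, DESeq2 5, no filter 2, sums 4, the 7-group fit 2, and leaving out libraries 0 to 1. For CO2 4 d against 1 d, with 5, the 5-fold threshold gave 3 and leaving out libraries 3 to 5. For the difference of CO2 effects, with 3, DESeq2 gave 5. The replicate letters name libraries and were not taken to pair them, since no pair of groups, of 10, had correlations over 0.1 between the deviations of same-letter libraries at each letter. Some pairs exceeded 0.1 at single letters. The highest values were in CO2+1-MCP against CO2 at 4 d, with 0.0348 at A, 0.485 at B and 0.377 at C, so pairing there is not excluded. Beside the counts above, the block moved DkERF9 in CO2+1-MCP against CK at 1 d (adjusted p = 0.0551) and DkERF23 in CO2 4 d against 1 d (adjusted p = 0.0662) past the threshold of 0.05.

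Over all unigenes the block left 14877 of 24415 passing in CO2 against CK at 1 d, and 0 of 3988 at 4 d, where DESeq2 gave 8156 and the 7-group fit 7211. In CO2+1-MCP against CK at 1 d it left 12281 of 21221, in CO2 4 d against 1 d 10794 of 18334, and in CO2+1-MCP 4 d against 1 d 3151 of 12420 (24005 in the 7-group fit). No unigene passed under the block in CO2+1-MCP against CK at 4 d or in either CK comparison, where DESeq2 gave 2202, 2443 and 3940. For the differences between days DESeq2 gave 23110 instead of 14215 for the CO2 effect and 1273 instead of 21 for the 1-MCP effect. Without the filter 1250 passed in CO2+1-MCP against CO2 at 1 d, 2668 at 4 d, 702 in CO2+1-MCP against CK at 4 d, 615 in CK 1 d against 0 d and 1095 for the 1-MCP effect. In the 7-group fit these were 59, 1498 and 1570 in the first 3, 603 for the 1-MCP effect and 325 in CK 4 d against 1 d. Of 31 member values with an unadjusted p of 0.05 or more, 11 changed sign under at least 1 alternative and 4 passed. Causes were not tested. Low counts limit DkERF9 outside the gas-treated groups at 1 d, and DkERF24 in those groups.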
